A study of Mus musculus with 6 samples.

Results

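This report describes 8 genes of MHC class I antigen presentation among the 32285 genes measured in single cells of the mouse small intestine. They are the classical class I heavy chain genes H2-K1 and H2-D1, B2m, which encodes their light chain, Tap1, Tap2 and Tapbp of the peptide loading machinery, Nlrc5, which encodes a transcriptional activator of class I genes, and H2-T3, which encodes the thymus leukemia antigen. They were chosen by symbol. Their RNA was followed through epithelial and immune cell classes in 3 control littermate mice and 3 IE-HuR-/- mice, which lack the RNA-binding protein HuR in the intestinal epithelium. Control littermates carried floxed HuR alleles without Cre (HuR fl/fl-Cre-), and IE-HuR-/- mice carried the same floxed alleles with villin-Cre, which acts in epithelial cells of the intestine and not in the immune cells among them. All animals were 6 to 8 weeks old and of C57BL/6 background, with age and gender matched, and had been without food but with water for a day. Mucosa of the small intestine was dissociated with EDTA and TrypLE, and 1 droplet library was made per animal. The labels name the controls wild-type, although they carried floxed alleles.

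Each library held raw counts of unique molecular identifiers (UMIs), which mark single captured RNA molecules. The 6 libraries held 60706 barcodes, with totals of 66396951 to 91818560 UMIs in the control libraries and 59518012 to 65925616 UMIs in the others. Barcodes shared by chance between 2 libraries numbered 22 to 44 a pair, at most 0.443% of the smaller library. Cells were put into classes by UMIs of marker genes, none of which was an MHC gene or an interferon-response gene, and the classes are called "like" for that reason. The gates left 14787 enterocyte-like, 1125 goblet-like and 6288 T-like cells over all libraries, and 31915 barcodes with a median of 732 to 1144.5 UMIs per library passed no gate. Class sizes were not compared between labels. Elavl1, the gene of HuR, was measured in enterocyte-like cells at 27.4 ± 0.916 CPM (UMIs of the gene divided by all UMIs of the class and multiplied by 1000000, then scaled between libraries by the TMM method; SD, n = 3) in the control libraries and at 32.0 ± 0.535 CPM in the libraries labelled IE-HuR-/-. The log2 fold change of the second label over the control was 0.22 (SE 0.0516, edgeR adjusted p = 0.000233), and 0.04 without TMM scaling. Elavl1 RNA was not lower in those libraries, so each direction below rests on the labels. HuR protein is not measured in these files. The count files do not show which part of the gene was read.

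MHC class I molecules carry short peptides from the inside of a cell to its surface, where CD8 T cells read them. Peptides made by the proteasome are pumped into the endoplasmic reticulum by the TAP1 and TAP2 transporter, and tapasin, the product of Tapbp, holds the empty class I heavy chain and its partner beta-2 microglobulin at the transporter until a peptide fits. NLRC5 and interferon-induced factors such as IRF1 raise transcription of the heavy chains and of much of this machinery. The thymus leukemia antigen is a nonclassical class I molecule of the mouse intestinal epithelium. It does not need TAP, and it binds CD8 alpha homodimers, which most intraepithelial lymphocytes carry.

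By gene annotation of the mouse build GRCm38 (mm10), H2-K1 lies on chromosome 17 at 33996017 to 34000347 on the minus strand and H2-D1 at 35262730 to 35267499 on the plus strand. Tapbp, Tap1 and Tap2 lie between them or close by, at 33915899 to 33929292, 34187553 to 34197225 and 34203527 to 34216321 of the same chromosome, all on the plus strand. H2-T3 lies further along it, at 36185572 to 36190287 on the minus strand. B2m is on chromosome 2 at 122147686 to 122153083 and Nlrc5 on chromosome 8 at 94434356 to 94527272, both on the plus strand. Because H2-K1 and H2-D1 moved in opposite directions in enterocyte-like cells, the 150 bases that lie 200 to 51 bases before their start sites are shown with those of B2m and H2-T3, from RefSeq promoters on GRCm38.p6. They cover chr17:34000398-34000547 (minus strand, H2-K1), chr17:35262894-35263043 (plus, H2-D1), chr2:122147487-122147636 (plus, B2m) and chr17:36190202-36190351 (minus, H2-T3). The start sites used for H2-D1 and H2-T3, 35263094 and 36190151, lie inside the gene spans given above. The H2-D1 window therefore lies within its span and the H2-T3 window overlaps its own. Capitals mark matches, on either strand, to the interferon-response core TTTCNNTT, the kappa-B core GGGATTCCC and the CCAAT box, and these letters were chosen after the sequences had been read.
H2-K1: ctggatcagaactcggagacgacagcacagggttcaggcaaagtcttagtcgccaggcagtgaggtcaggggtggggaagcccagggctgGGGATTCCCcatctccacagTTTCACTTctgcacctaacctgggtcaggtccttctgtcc
H2-D1: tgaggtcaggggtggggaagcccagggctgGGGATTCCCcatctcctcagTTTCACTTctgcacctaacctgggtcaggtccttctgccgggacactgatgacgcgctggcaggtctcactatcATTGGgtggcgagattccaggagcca
B2m: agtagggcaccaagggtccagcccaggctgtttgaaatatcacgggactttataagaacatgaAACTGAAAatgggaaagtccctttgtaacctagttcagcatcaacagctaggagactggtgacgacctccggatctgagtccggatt
H2-T3: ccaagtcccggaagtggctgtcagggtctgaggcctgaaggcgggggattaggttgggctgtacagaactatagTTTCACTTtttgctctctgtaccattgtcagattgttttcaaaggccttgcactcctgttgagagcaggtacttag
The interferon-response core was found in these 4 and in 13.4% of 32851 promoters in the same window, and the kappa-B core in H2-K1 and H2-D1 and in 0.155% of promoters. The CCAAT box was found in 23.5% of promoters, here in H2-D1 and in Tapbp, both on the opposite strand. H2-K1 and H2-D1 thus hold the same interferon-response and kappa-B letters in this window. The kappa-B and interferon-response letters begin at -110 and -90 in H2-K1 and at -170 and -150 in H2-D1. From a second H2-K1 start, not shown, they begin at -124 and -104. The window therefore holds fewer bases after them in H2-K1, and whether H2-K1 has a CCAAT box nearer its start is not shown. Tap1 has no match in it, and Tap2 and Nlrc5 were not in the promoter table. A match describes the letters and no site. The class I heavy chain genes are close copies of each other, so the counting may have split or lost reads among H2-K1, H2-D1, H2-T3 and their relatives, and their values are uncertain to that extent.

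H2-T3 RNA was mainly epithelial. Among 12 classes of the control libraries its level, in CPM without TMM scaling, was highest in villus-tip enterocyte-like cells at 156 ± 6.30 (SD, n = 3 libraries) and next in lower-villus enterocyte-like cells at 137 ± 3.09, and the libraries of these classes did not overlap. Villus-tip cells were enterocyte-like cells with at least 1% of their UMIs on 5 villus-tip markers, and lower-villus cells had at most 0.5%. Goblet-like cells followed at 94.7 ± 10.7 CPM and tuft-like cells at 74.5 ± 7.45 CPM, each apart from its neighbours in every library. Enteroendocrine-like and progenitor-like cells, at 60.6 ± 5.04 and 55.6 ± 16.8 CPM, could not be told apart. Immune and erythroid-like classes had 5.69 to 25.8 CPM on average, with overlapping libraries.

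In the libraries labelled IE-HuR-/- the first places of that order were exchanged. H2-T3 stood at 136 ± 1.505 CPM in lower-villus and at 91.9 ± 2.89 CPM in villus-tip enterocyte-like cells, without overlap. Tuft-like (59.9 ± 8.52 CPM) and goblet-like cells (56.5 ± 9.99 CPM) overlapped, and the immune and erythroid-like classes had 7.78 to 10.9 CPM. The exchange depended on how the zones were drawn, as given below.

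Free RNA from lysed enterocytes gives UMIs in other cells, so the H2-T3 level of each class was set beside the summed level of 12 enterocyte markers, both as a percent of the level in enterocyte-like cells of the same library. In T-like cells H2-T3 stood at 4.69 to 12.6% and the enterocyte markers at 5.13 to 11.49%, with H2-T3 the higher share in 3 of 6 libraries. In gamma-delta T-like cells the ranges were 3.30 to 12.3% and 5.40 to 13.0%. H2-T3 UMIs in T-like cells are therefore at the level of enterocyte RNA and are not read as expression. Goblet-like cells had 37.7 to 67.1% of the enterocyte H2-T3 level and 37.4 to 57.7% of the enterocyte marker level, with H2-T3 higher in 6 of 6 libraries. The margin was widest in control replicate 3, at 67.1 against 56.6%. It was narrow in control replicate 1 (57.76 against 57.70%) and in replicate 3 of the label IE-HuR-/- (37.72 against 37.38%). In those libraries the median single marker, at 61.3 and 39.3%, lay above H2-T3. The goblet-like level is therefore not clearly set apart from enterocyte RNA. Progenitor-like cells had 18.3 to 61.6% against 2.89 to 19.98%, higher in 6 of 6 libraries on 96 H2-T3 UMIs in all. Tuft-like cells had 44.0 to 56.2% against 42.3 to 69.8%, with H2-T3 the higher share in 1 of 6 libraries. The highest single marker stood there at 125 to 190%, so the marker sum need not be enterocyte RNA alone. The median single marker, at 35.8 to 64.0%, lay above H2-T3 in some libraries and below it in others. Enteroendocrine-like cells had 3.94 to 51.01% against 19.1 to 41.8%, with H2-T3 higher in 3 of 6. The H2-T3 levels of these 2 classes therefore cannot be told apart from enterocyte RNA either.

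**Figure D1:**
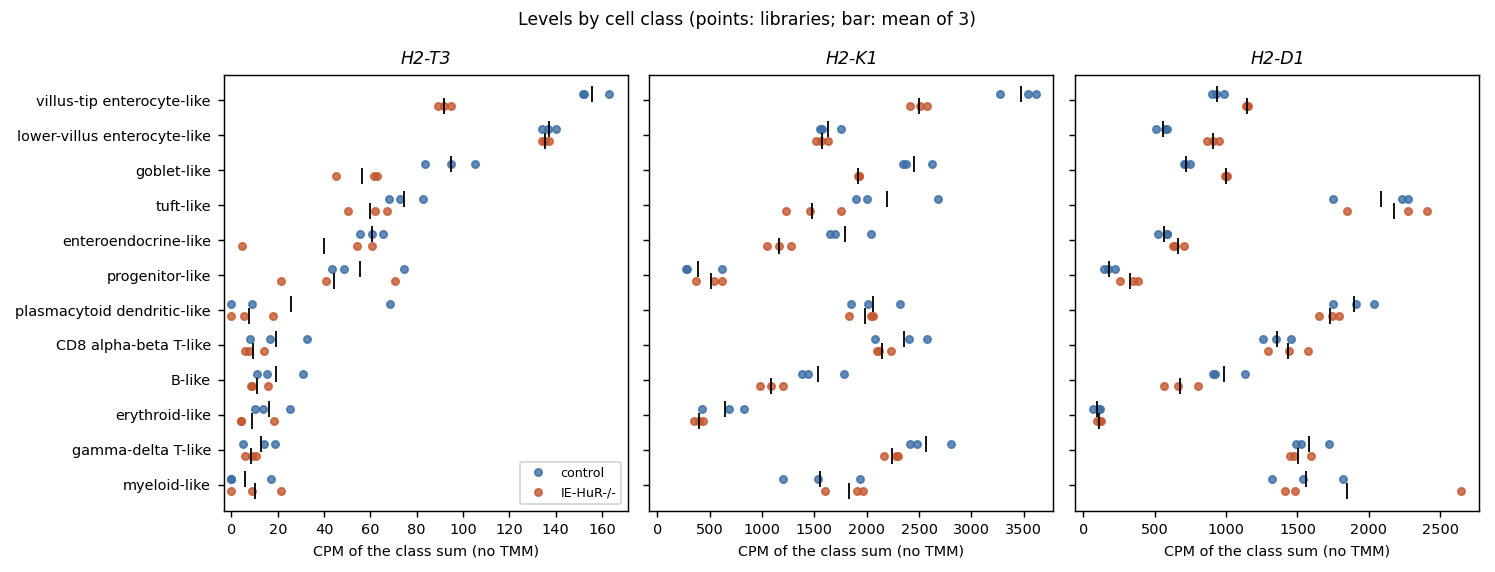
Level of H2-T3, H2-K1 and H2-D1 (horizontal axes, CPM of the class sum without TMM scaling, from 0 for H2-T3) in 12 cell classes (vertical axis), with a point for each library and a bar for the mean of 3 libraries of a label. Mean H2-T3 lay above 130 CPM only in the lower-villus class under both labels and in the villus-tip class of the control libraries, whereas H2-K1 and H2-D1 were also high in immune classes.

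The classical heavy chains were spread over epithelium and immune cells, in different orders. H2-K1 was highest in villus-tip enterocyte-like cells under both labels, at 3478 ± 183 CPM in the control libraries and 2502 ± 80.0 CPM in those labelled IE-HuR-/-, with gamma-delta T-like cells next at 2565 ± 207 and 2245 ± 70.9 CPM. H2-D1 was highest in tuft-like cells, a rare chemosensory type, at 2086 ± 293 and 2177 ± 293 CPM, but its libraries overlapped those of the class next in order, plasmacytoid dendritic-like cells under the control label (1898 ± 146 CPM) and myeloid-like cells under the other (1848 ± 692 CPM). Enterocyte-like and goblet-like cells had less H2-D1 than tuft-like cells, with 938 ± 43.0 CPM in the control villus-tip class. Progenitor-like cells had little of either, at 392 ± 192 CPM of H2-K1 and 180 ± 41.1 CPM of H2-D1 in the control libraries. B2m followed H2-K1 at the top, with 3880 ± 141 and 3462 ± 35.7 CPM in villus-tip cells.

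The loading genes Tap1 and Tap2 and the activator were led by T-like or plasmacytoid dendritic-like classes. Tap1 was highest in CD8 alpha-beta T-like and plasmacytoid dendritic-like cells of the control libraries, at 96.9 ± 24.2 and 96.2 ± 30.8 CPM, and these overlapped. Control enterocyte-like and goblet-like classes lay between 35.1 and 36.7 CPM of Tap1. Tap2 showed the same division, with 104 ± 23.3 CPM in plasmacytoid dendritic-like cells and 41.5 ± 2.70 CPM in villus-tip cells. Tapbp was the exception among the loading genes, with its highest control level in villus-tip cells, 418 ± 8.03 CPM. Nlrc5 reached 54.0 ± 27.3 CPM in CD8 alpha-beta T-like cells on 22 UMIs and 44.8 ± 5.22 CPM in gamma-delta T-like cells. It lay between 0.247 and 2.76 CPM in the 5 control epithelial classes above 0. No Nlrc5 UMI was found in progenitor-like cells of either label.

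In enterocyte-like cells, taken whole, the members did not move together. H2-D1, Tap1 and Nlrc5 rose, H2-K1, H2-T3, Tap2 and Tapbp fell, and B2m did not pass the test. The 7 of 8 members called compare with 60.7% of all genes tested in this class, and the median log2 fold change was -0.01 over the members and -0.03 over all genes. In each comparison here, UMIs of a class were summed per library, and a gene was called at a Benjamini-Hochberg adjusted p under 0.05 over all genes tested by edgeR's quasi-likelihood test. Levels set between labels are in TMM-scaled CPM. Without TMM scaling the median of all genes moved by -0.19 (log2) and the share of calls that were higher fell from 47.6% to 22.5%, but the direction of the 7 called members held.

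H2-D1, a classical heavy chain, had 729.2, 759.3 and 812.6 CPM in the control libraries and 1122, 1125 and 1080 CPM in those labelled IE-HuR-/-. Every library of the second label lay above every control library, with a log2 fold change of 0.53 (SE 0.0458, adjusted p = 6.65e-14). H2-K1, the other classical heavy chain, went the other way, from 2574, 2832 and 2783 CPM to 2358, 2193 and 2215 CPM. Its groups did not overlap either, and its log2 fold change was -0.28 (SE 0.0489, adjusted p = 4.65e-06).

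B2m, the light chain shared by all class I molecules, was at 3085, 3011 and 3292 CPM and at 3429, 3327 and 3279 CPM. The groups overlapped narrowly, and the log2 fold change of 0.10 (SE 0.0488, adjusted p = 0.0847) became -0.09 without TMM scaling. H2-T3 had 154.1, 143.6 and 147.4 CPM in the control libraries and 123.2, 125.0 and 126.2 CPM in the others. All 3 libraries labelled IE-HuR-/- were below the controls, with a log2 fold change of -0.25 (SE 0.0428, adjusted p = 2.43e-06).

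Tap1 and Tap2, which form 1 transporter together, parted. Tap1 had 35.50, 35.86 and 38.16 CPM against 48.53, 47.86 and 47.61 CPM, without overlap, a log2 fold change of 0.40 (SE 0.0483, adjusted p = 1.41e-09). Tap2 had 33.50, 37.80 and 38.93 CPM against 32.65, 33.84 and 32.25 CPM, with overlap through control replicate 1, a log2 fold change of -0.16 (SE 0.0532, adjusted p = 0.00965). Tapbp fell by 0.11 on the log2 scale (SE 0.0425, adjusted p = 0.0227), from 350.6, 359.9 and 362.8 CPM to 344.9, 325.1 and 324.1 CPM. Both calls were lost with DESeq2, without control replicate 2 or 3 and without replicate 3 of the label IE-HuR-/-.

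Nlrc5 was scarce in enterocyte-like cells, with 80, 91 and 52 UMIs in the control libraries and 88, 71 and 128 UMIs in the others. These gave 1.529, 1.559 and 1.243 CPM against 2.658, 1.864 and 3.340 CPM. The groups did not overlap, and the log2 fold change was 0.85 (SE 0.172, adjusted p = 7.42e-05).

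**Figure D2:**
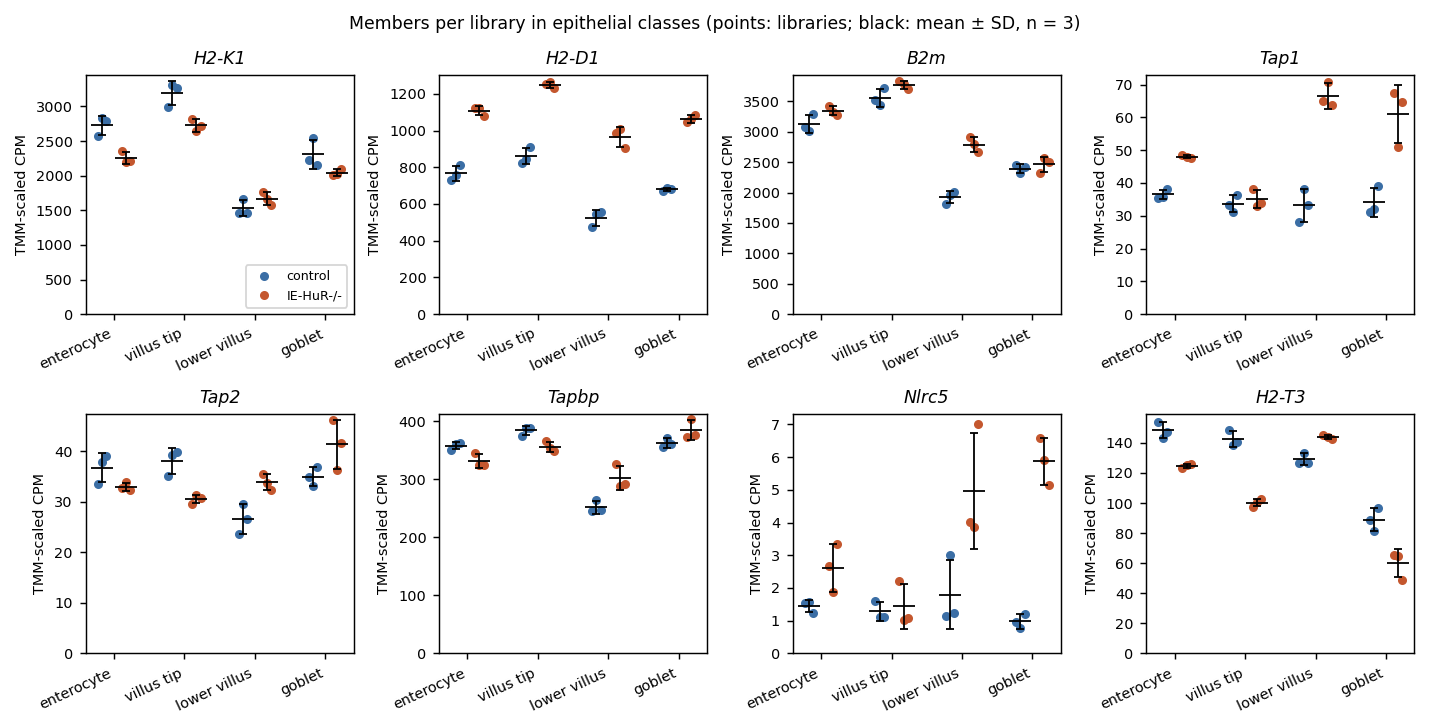
TMM-scaled CPM of the 8 genes (vertical axes from 0, a panel each) in enterocyte-like, villus-tip, lower-villus and goblet-like sums (horizontal axis), with a point for each library and the mean ± SD of 3 libraries in black. H2-D1 is higher in the libraries labelled IE-HuR-/- in all 4 sums, while H2-T3 is lower in villus-tip and goblet-like sums.

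The fall of H2-T3 was found at the villus tip. Villus-tip enterocyte-like cells had 148.9, 138.9 and 140.4 CPM of H2-T3 in the control libraries and 97.62, 100.5 and 102.6 CPM in those labelled IE-HuR-/-. No library overlapped, and the log2 fold change was -0.51 (SE 0.0452, adjusted p = 7.42e-13) in a class where 63.6% of genes were called. Lower-villus cells had 127.0, 133.6 and 126.7 CPM against 145.3, 143.7 and 142.9 CPM. There the log2 fold change was 0.16 (SE 0.0580, adjusted p = 0.0275), with 44.3% of genes called. That rise was -0.02 without TMM scaling, and the call was lost without control replicate 1 or 3 or replicate 1 or 2 of the other label. The difference of the label effect between the zones, tip minus lower, was -0.62 (SE 0.0586, adjusted p = 2.75e-10), in an interaction test that called 29.8% of genes. Without TMM scaling the share of calls that were higher moved from 48.1% to 21.5% at the tip, from 50.6% to 24.1% below it and from 61.5% to 36.5% in the interaction test, while H2-T3 was at -0.76 at the tip and its difference between zones at -0.74.

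The zones rest on Ada, Nt5e, Slc28a2, Creb3l3 and Apoa4, and these markers themselves differed between labels at the same summed share. In cells with 1 to 2% of their UMIs on the markers, Ada was at 690 ± 49.5 CPM without TMM in the control libraries and at 1909 ± 232 CPM in the others, while Apoa4, which makes up most of the sum, was at 13066 ± 230 and 11269 ± 317 CPM. Slc28a2 (131 against 373 CPM), Nt5e (44.9 against 82.2 CPM) and Creb3l3 (645 against 714 CPM) were also higher there in the libraries labelled IE-HuR-/-. The same share need not be the same height on the villus under both labels. Zones were drawn again from the other 4 markers without Apoa4, an alternative chosen after the data had been seen, which need not match height either. Then H2-T3 still fell by 0.46 on the log2 scale at the tip (SE 0.0587, adjusted p = 1.57e-07) and was at -0.08 in lower-villus cells (SE 0.0455, adjusted p = 0.158). The difference was smaller, -0.28 (SE 0.0565, adjusted p = 0.000219). In these zones the mean H2-T3 level without TMM was higher in lower-villus than in villus-tip cells under both labels, at 198 against 76.4 CPM in the control libraries and 170 against 49.5 CPM in the others.

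Over 6 steps of the marker share, H2-T3 of the control libraries rose from 128 CPM in cells with under 0.25% to 199 CPM at 0.5 to 1%, and was 78.1 CPM in cells with over 4%. In the libraries labelled IE-HuR-/- it was 133 CPM at the start, 160 CPM at 0.5 to 1% and 35.7 CPM over 4%. The ratio of the second label to the control was 1.04, 0.927, 0.804, 0.683, 0.563 and 0.457 from the lowest to the highest step, without TMM scaling. The libraries of the labels overlapped in the lowest step and in none of the 5 above it. Without TMM scaling the median log2 fold change over all genes was itself -0.29 in villus-tip and -0.19 in lower-villus cells. The ratios include that shift, and the share of all genes that parted the labels in these steps was not computed.

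**Figure D3:**
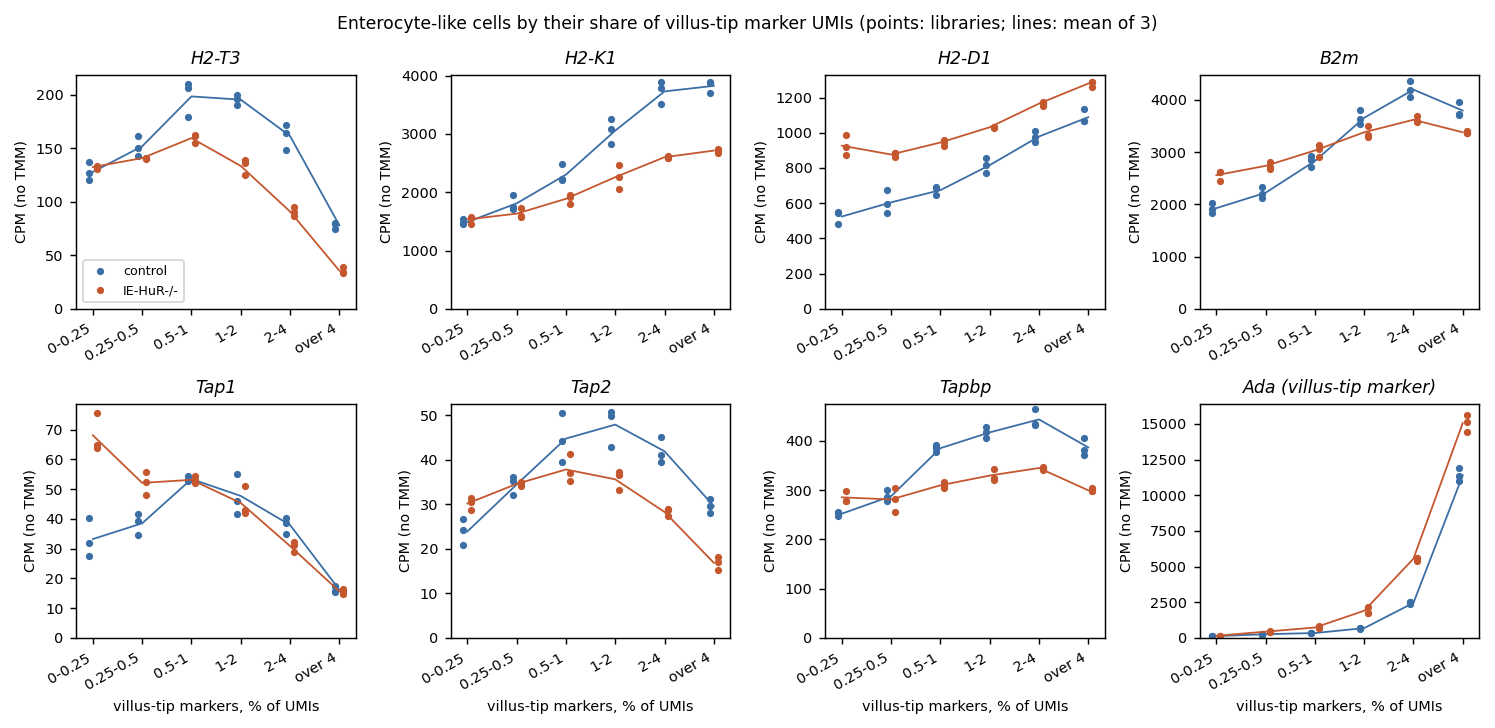
Level of 7 of the 8 genes and of the tip marker Ada (vertical axes, CPM without TMM scaling, from 0) in enterocyte-like cells grouped by the percent of UMIs on 5 villus-tip markers (horizontal axis), with a point for each library and lines through the mean of 3. The H2-T3 lines part as the marker share grows, H2-D1 is higher in the libraries labelled IE-HuR-/- in every step, and Ada differs between labels at equal marker share.

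The share of cells with an H2-T3 UMI, after each cell was thinned to 2000 UMIs, showed the same order. It was 23.04% ± 1.11 (SD, n = 3) of villus-tip cells in the control libraries and 12.4% ± 0.880 in the others, a difference of -10.6 percentage points (exact permutation test, two-sided, p = 0.1, and 3 against 3 libraries can give no smaller p). In lower-villus cells the shares were 13.5% ± 0.840 and 13.7% ± 1.22 (exact p = 0.9), and in all enterocyte-like cells 19.7% ± 0.408 and 14.5% ± 0.658 (exact p = 0.1). With the stricter gate, of cells with no marker UMI of another lineage, the shares of all enterocyte-like cells were 15.5% ± 2.24 and 13.3% ± 0.391, which overlapped and differed by -2.25 points (exact p = 0.3) in place of -5.21, whereas the villus-tip shares were 21.8% and 12.5%. T-like cells, which should lack the gene, had 2.31% ± 1.17 and 1.72% ± 0.326 (exact p = 0.5), with 307 shallower T-like cells left out, 143 of the control libraries and 164 of the others. Without thinning the villus-tip shares were 74.3% and 53.1%, the lower-villus shares 34.9% and 39.0% and the T-like shares 5.74% and 3.65%.

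H2-D1 was higher in the libraries labelled IE-HuR-/- in both zones. At the tip it had 824.1, 847.4 and 910.1 CPM against 1255, 1262 and 1232 CPM, a log2 fold change of 0.54 (SE 0.0440, adjusted p = 7.48e-14). In lower-villus cells it had 472.0, 544.2 and 553.9 CPM against 984.5, 1009 and 905.7 CPM, a log2 fold change of 0.89 (SE 0.0627, adjusted p = 5.11e-14). In the zones without Apoa4 the values were 0.42 at the tip and 0.49 below, both called, and their difference turned from -0.30 (adjusted p = 8.74e-06) to 0.04 (adjusted p = 0.559).

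H2-K1 fell at the tip, from 2989, 3305 and 3274 CPM to 2824, 2642 and 2719 CPM. Its log2 fold change there was -0.23 (SE 0.0475, adjusted p = 8.02e-05), and -0.41 in the zones without Apoa4. In lower-villus cells H2-K1 had a log2 fold change of 0.12 (SE 0.0627, adjusted p = 0.107), which was -0.05 without TMM scaling and -0.30 (adjusted p = 7.69e-06) in the zones without Apoa4. Over the 6 steps the ratio of the labels for H2-K1, also without TMM scaling, went from 1.03 at the lowest to 0.71 at the highest marker share.

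In lower-villus cells the light chain and the loading genes rose. B2m had 1819, 1958 and 2015 CPM against 2910, 2794 and 2664 CPM, a log2 fold change of 0.53 (SE 0.0614, adjusted p = 6.04e-09). Tap1 had 28.20, 38.03 and 33.21 CPM against 64.86, 70.92 and 63.66 CPM, a log2 fold change of 1.00 (SE 0.0844, adjusted p = 4.01e-11). Both parted the labels fully. Tap2 rose by 0.34 and Tapbp by 0.26 on the log2 scale, calls that were lost without TMM scaling, and Nlrc5 by 1.40 (SE 0.365, adjusted p = 0.00866) on 10 to 39 UMIs in the control libraries and 37 to 85 in the others. Without control replicate 2, Nlrc5 was at 2.07.

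At the tip, B2m, Tap1 and Nlrc5 did not pass the test, with log2 fold changes of 0.09, 0.06 and 0.14, which were -0.16, -0.19 and -0.11 without TMM scaling. B2m and Tap1 were called lower without that scaling (adjusted p = 0.00135 and 0.00883), which made 1 member higher and 6 lower. Tap2 fell by 0.32 (SE 0.0606, adjusted p = 1.96e-05) and Tapbp by 0.11 (SE 0.0414, adjusted p = 0.0216). As a result 7 of 8 members differed between the zones in the interaction test, beside 29.8% of all genes, with tip minus lower values of -0.40 for B2m, -0.89 for Tap1, -0.61 for Tap2 and -0.32 for Tapbp, and -1.24 for Nlrc5, which did not pass (adjusted p = 0.178).

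These zone differences, H2-T3 apart, did not hold when Apoa4 was left out. The tip minus lower value became 0.19 for B2m (adjusted p = 0.000686), 0.64 for Tap1 (adjusted p = 6.41e-06) and 0.14 for Tapbp (adjusted p = 0.0226), each in the other direction. It was -0.10 for Tap2, -0.01 for H2-K1 and 0.69 for Nlrc5, none of them called. In those zones Tap1 was higher at the tip by 0.87 and below it by 0.33, and B2m was at 0.09 and 0.01. The rise of H2-D1 and the fall of H2-K1, H2-T3 and Tap2 at the tip were called under both definitions. Over all alternatives run, Tap2 at the tip ranged from -0.57 to -0.26 and Nlrc5 from -0.30 to 1.13.

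Goblet-like cells, the mucus-secreting cells of the epithelium, repeated part of this pattern in a class where 22.5% of genes were called, of which 53.8% were higher, or 25.4% without TMM scaling. H2-D1, Tap1 and Nlrc5 rose, H2-T3 fell and the other 4 members did not pass the test. H2-D1 had 668.2, 684.9 and 683.8 CPM in the control libraries and 1045, 1061 and 1086 CPM in the others, and so rose by 0.65 on the log2 scale (SE 0.0993, adjusted p = 0.000169). Tap1 had 31.23, 31.97 and 39.22 CPM against 67.53, 51.04 and 64.82 CPM, a log2 fold change of 0.85 (SE 0.131, adjusted p = 0.000192). The labels did not overlap for either gene.

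Nlrc5 had 6, 5 and 7 UMIs in the goblet-like cells of the control libraries and 28, 20 and 19 UMIs in the others. This gave the highest log2 fold change of a member in these 4 sums, 2.57 (SE 0.343, adjusted p = 4.34e-05). H2-T3 had 88.94, 81.25 and 96.65 CPM against 65.65, 64.91 and 49.09 CPM, without overlap, a log2 fold change of -0.57 (SE 0.122, adjusted p = 0.00272). Enterocyte markers in goblet-like sums were also lower in the libraries labelled IE-HuR-/-, at 27539 to 34352 CPM against 36096 to 38293 CPM without TMM, and the part of enterocyte RNA in the H2-T3 difference was not tested. The stricter goblet gate left 109 cells over all libraries, and edgeR called only 5 of 2105 genes there. It called 0 of 4 members tested (0 at an unadjusted p under 0.05), with H2-D1 at 0.70 and an adjusted p of 0.990. The mean H2-T3 level without TMM was 56.1 CPM in the control libraries and 70.4 CPM in the others under that gate. H2-K1, B2m, Tap2 and Tapbp had log2 fold changes of -0.18, 0.04, 0.25 and 0.09. Without TMM scaling H2-K1 was called lower, at -0.35 (adjusted p = 0.0196), and B2m and Tapbp were at -0.14 and -0.09.

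**Figure D4:**
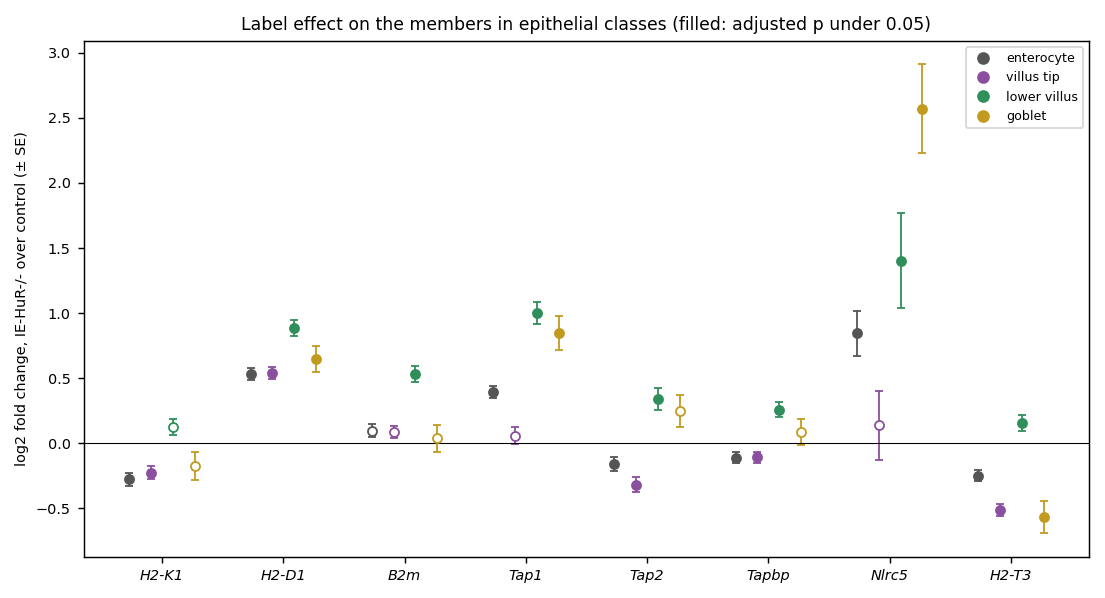
Log2 fold change of the 8 genes (vertical axis, libraries labelled IE-HuR-/- over control, ± SE) in 4 epithelial sums, filled where the adjusted p was under 0.05. H2-D1 is above 0 and filled in all 4 sums, from 0.53 to 0.89, and H2-T3 is below 0 in the villus-tip, whole enterocyte-like and goblet-like sums.

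No member was called in the rarer epithelial classes, where few genes were called at all. In tuft-like cells 0.859% of genes were called, in enteroendocrine-like cells 0.47% and in progenitor-like cells 0.17%, and 1 member in each had an unadjusted p under 0.05, with 0 called by DESeq2. That member was H2-K1 in tuft-like cells (log2 fold change -0.59, SE 0.179, adjusted p = 0.155) and in enteroendocrine-like cells (-0.60, SE 0.172, adjusted p = 0.155). In progenitor-like cells it was H2-D1, with 148.8, 237.6 and 166.9 CPM against 350.5, 238.2 and 380.0 CPM (0.81, SE 0.238, adjusted p = 0.374). The smallest of these sums held 10 cells in a library. H2-T3 of the enteroendocrine-like class was at 53.82 to 66.76 CPM in 5 libraries and at 4.447 CPM, 3 UMIs, in replicate 1 of the label IE-HuR-/-.

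No member was called in the T-like classes tested. In gamma-delta T-like cells, the intraepithelial lymphocytes with a gamma-delta receptor, 0 of 8 members and 1.13% of all genes were called. H2-D1 had 1510, 1589 and 1670 CPM against 1448, 1599 and 1437 CPM there, with overlap, a log2 fold change of -0.09 (SE 0.0658, adjusted p = 0.746). Tap1 had 71.84, 69.04 and 67.80 CPM against 86.87, 88.89 and 85.45 CPM, which did not overlap but gave an adjusted p of 0.443 (log2 fold change 0.32, SE 0.143). H2-K1 was at -0.22 (SE 0.0666, adjusted p = 0.136), also without overlap (2412 to 2914 against 2170 to 2274 CPM). Tap1 and H2-K1 had an unadjusted p under 0.05, and DESeq2 called 0 members. Nlrc5, not called, did not overlap either, at 40.6 to 49.0 against 53.5 to 59.2 CPM. The share of all genes without overlap was not computed for these cells. In CD8 alpha-beta T-like cells 0 of 7 members tested and 0.669% of genes were called, and 0 members had an unadjusted p under 0.05 or were called by DESeq2. H2-D1 was at -0.02 there (SE 0.136, adjusted p = 0.989), on 150 to 206 UMIs in the control libraries.

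In B-like cells 4 members were tested and all 4 were lower under the label IE-HuR-/-, where 11.3% of genes were called, 39.7% of them higher (59.0% without TMM scaling). B2m had 1340, 1444 and 1435 CPM against 736.3, 876.0 and 750.1 CPM, a log2 fold change of -0.84 (SE 0.179, adjusted p = 0.00298). H2-K1, H2-D1 and Tapbp had log2 fold changes of -0.65, -0.69 and -0.88, and none of the 4 overlapped between labels. The share of all genes without overlap was not computed for this class. DESeq2 called 2 of them, and 1 was called without TMM scaling or without the filter on low counts. Of the 4 calls 3 held without control replicate 1, 2 without control replicate 3, and 1 without control replicate 2 or without replicate 1 or 3 of the label IE-HuR-/-, whereas all 4 held without replicate 2 of that label. These sums held 26 to 40 cells a library. Beside them, the summed progenitor and cycling markers were at 0 to 515 CPM in the control libraries and at 581 to 1552 CPM in the others, and pan-epithelial markers at 1053 to 1762 and 770 to 850 CPM. Of the 4 plasmacytoid dendritic markers, Siglech and Cox6a2 had no UMI in any B-like sum. The sum of the other 2, Klk1 and Ly6d, did not overlap between labels (984 to 1681 against 515 to 642 CPM). Nor did markers of the villus tip (1827 to 3183 against 992 to 1345 CPM) and of erythroid cells (157 to 373 against 45.3 to 147 CPM). The part of all these markers in the result was not tested. In myeloid-like cells (macrophages and dendritic cells) 0 of 6 members tested and 1.2% of genes were called, 0 members had an unadjusted p under 0.05, and DESeq2 called 0.

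The test of the difference between classes called 1 of 8 members, H2-D1. Its label effect in enterocyte-like cells exceeded that in T-like cells by 0.71 on the log2 scale (SE 0.104, adjusted p = 0.000798), in an interaction test that called 17.5% of genes, 45.1% of them higher (13.7% without TMM scaling). The other 7 members did not pass, among them H2-K1 at -0.03, Tap1 at 0.23 and Nlrc5 at 0.52. The H2-D1 value held its side of the threshold under every alternative run, with a range of 0.50 to 0.81. Besides H2-D1, B2m and Tap1 passed with DESeq2, and Tap2 and Tapbp, both below 0, without TMM scaling. Against myeloid-like cells 0 of 8 members differed, 1 had an unadjusted p under 0.05, DESeq2 called 0 and 1.0% of genes were called.

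Markers of other cells were measured in the enterocyte-like sums. The 6 T cell markers were all seen there, with a sum of 10.1 to 19.5 CPM in the control libraries and 17.2 to 23.2 CPM in the others, 0.139 to 0.325% of their level in T-like cells. At that percent T-like cells would bring 2.05 to 4.56 CPM of H2-D1 and 0.0598 to 0.181 CPM of Nlrc5. Markers of plasmacytoid dendritic cells (1.498 to 1.94 against 4.61 to 7.15 CPM), myeloid cells (0.635 to 1.92 against 1.94 to 3.58 CPM) and plasma cells (0.0254 to 0.837 against 1.62 to 2.02 CPM) stood higher under the label IE-HuR-/-, without overlap. The plasmacytoid dendritic list was far higher in goblet-like sums, at 226 to 250 against 321 to 482 CPM. In epithelial sums it need not mark plasmacytoid dendritic cells. The enterocyte-like sums held enterocyte markers at 64686 to 67637 CPM in the control libraries against 71777 to 75084 CPM, and villus-tip markers at 19763 to 22404 against 18040 to 19362 CPM, also without overlap. Their part in the values above was not tested.

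The rest of the class I pathway was read from a list of 37 further genes, of which 36 were in the files. In enterocyte-like cells, where 60.7% of all genes tested were called, 6 of 7 genes that make and trim peptides rose and 1 fell, with a median log2 fold change of 0.21 against -0.03 over all genes. Psme1, a subunit of the proteasome activator PA28, rose by 0.32 (SE 0.0419, adjusted p = 1.15e-08), from 224 ± 3.00 to 279 ± 7.88 CPM. The immunoproteasome subunits Psmb10, Psmb8 and Psmb9 rose by 0.30, 0.21 and 0.15, and Psme2 and Psme3 by 0.21 each. Erap1, the aminopeptidase that trims peptides in the endoplasmic reticulum, fell by 0.21 (SE 0.0494, adjusted p = 0.000367). Without TMM scaling 2 of these 6 rises were called, Psme1 and Psmb10, and Psmb9 was at -0.04. In villus-tip cells, where 63.6% of genes were called, 3 of the 7 rose and 2 fell, Psmb9 and Erap1. Without TMM scaling 0 were called higher there and 4 lower. In lower-villus cells, with 44.3% of genes called, 2 of the 7 rose and 0 fell, and 0 were called without TMM scaling.

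Among 4 chaperones, 3 rose and 1 fell. Canx, calnexin, which folds new heavy chains, went from 160 ± 3.78 to 220 ± 4.20 CPM, a log2 fold change of 0.45 (SE 0.0420, adjusted p = 6.29e-13). Calr and Pdia3 rose by 0.13 and 0.10, and were at -0.06 and -0.09 without TMM scaling, and Tapbpl, a second peptide editor beside tapasin, fell by 0.31.

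Of 9 regulators, 3 rose and 3 fell. Irf1, an interferon-induced factor, had 122 ± 4.68 CPM in the control libraries and 195 ± 7.47 CPM in the others, and so rose by 0.68 on the log2 scale (SE 0.0438, adjusted p = 3.05e-18). Rfxank and Creb1 rose by 0.19 and 0.13, with 0.01 and -0.06 without TMM scaling. Rfx5, which encodes a subunit of the RFX complex, fell by 0.42. Nfya and Nfyc, subunits of NF-Y, which binds beside RFX and CREB on class I promoters, fell by 0.66 and 0.14. Irf2, Rfxap and Nfyb did not pass the test, at 0.08, 0.02 and -0.06 (adjusted p = 0.117, 0.829 and 0.433), and without TMM scaling all 3 were called lower, at -0.11, -0.17 and -0.25.

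Of 13 nonclassical and class I-like genes tested, 3 rose and 2 fell. H2-Q7 rose by 0.76 from 3.95 ± 0.629 to 6.75 ± 0.949 CPM, H2-Q1 by 0.24 from 130 ± 1.03 to 154 ± 2.46 CPM, and H2-M3 by 1.22 at under 1 CPM. H2-Q10 and H2-T22 fell by 0.82 and 0.28. H2-Q genes are close copies of each other and of H2-K1 and H2-D1, and their values share the uncertainty named for those genes. Without TMM scaling 2 of the 3 rises were called, H2-Q7 and H2-M3, and 7 of the 13 genes were called lower.

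**Figure D5:**
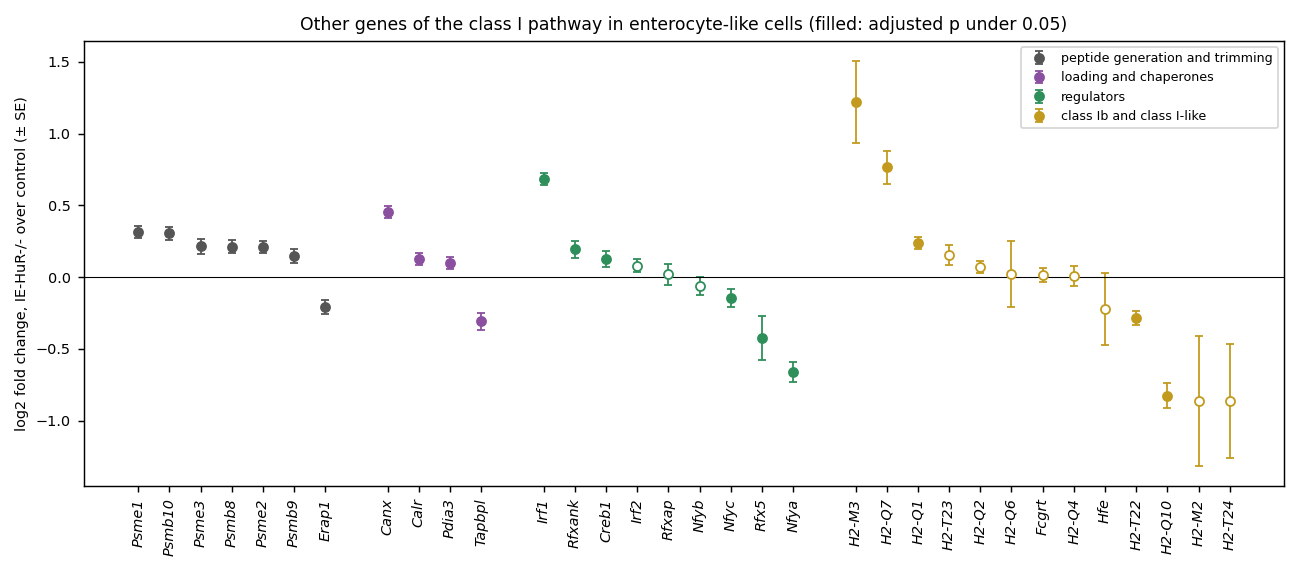
Log2 fold change (vertical axis, libraries labelled IE-HuR-/- over control, ± SE) of 33 further genes of the class I pathway tested in enterocyte-like cells, ordered by size within 4 lists (horizontal axis) and filled where the adjusted p was under 0.05. Genes of peptide generation lie between -0.21 and 0.32, and the other lists hold genes on both sides of 0.

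In goblet-like cells, where 22.5% of all genes were called, the same lists gave 5 of 7 genes of peptide generation higher and 0 lower, 2 of 4 chaperones higher, 1 of 9 regulators higher and 1 of 9 class I-like genes in each direction. Irf1 rose by 1.02 (SE 0.110, adjusted p = 4.57e-06). Psmb9, Psme1, Psmb10, Psmb8 and Psme2 rose by 0.60, 0.52, 0.46, 0.36 and 0.32, and H2-Q7 by 1.49. Without TMM scaling 2 of the 5 rises in peptide generation, 0 of the 2 among chaperones and that of Irf1 were called. Of the class I-like genes 1 was then called higher and 2 lower, and 1 regulator was called lower. In gamma-delta T-like cells Irf1 was at 0.06 (SE 0.125, adjusted p = 0.934).

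CD8 alpha, the chain that binds both classical class I and the thymus leukemia antigen, was carried at a high level by T-like cells. Cd8a had 960 ± 14.6 and 1012 ± 66.6 CPM in gamma-delta T-like cells (log2 fold change 0.07, SE 0.0699, adjusted p = 0.812). Cd8b1, whose product pairs with CD8 alpha on conventional CD8 T cells, was scarce there, at 1.88 ± 1.89 against 30.8 ± 13.2 CPM (3.85, SE 0.512, adjusted p = 0.000135). The CD8 alpha-beta T-like class had 646 ± 137 and 641 ± 17.5 CPM of it. The gamma-delta gate asked for Trdc, at least 2 gamma-delta UMIs and no Trac UMI, and did not exclude Cd8b1. CD8 alpha-beta T-like sums held 118853 to 152683 UMIs in the control libraries and 535804 to 702447 in the others. The part of such cells or of their free RNA in the Cd8b1 difference was not tested. Klrd1, a subunit of receptors for nonclassical class I, was at 800 ± 84.1 and 806 ± 55.9 CPM in gamma-delta T-like cells. In the enterocyte-like sums Cd8a, Cd8b1 and Klrd1 were all called higher under the label IE-HuR-/-, with a median log2 fold change of 0.94. There 60.7% of all genes were called, and 1 of these 3 was called higher without TMM scaling. The part of T cell RNA in those values was not tested.

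Genes with a pattern over the 12 classes most like that of H2-T3 were sought by Pearson's r of mean log2(CPM + 1) among 12052 genes. In the control libraries these were Nr1h3 (r = 0.984), Chmp4c (0.983), Itga3 (0.981), Perp (0.977) and Ces1f (0.977), and in those labelled IE-HuR-/- Tkfc (0.984), Ckmt1 (0.983), Maoa (0.981), Rbp2 (0.980) and Adtrp (0.979). The 12 points share libraries and free RNA, and 0 genes stood in both lists of 5. The other members were unlike H2-T3 in this measure, with r from -0.519 for Nlrc5 to 0.236 for Tapbp.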

How the data were processed

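Droplet single-cell RNA libraries of small-intestinal mucosa from 3 control littermate mice and 3 IE-HuR-/- mice were analysed, 1 library per animal. The deposited values are counts of UMIs for each gene in each barcode without normalization, and per the file headers they were made with Cell Ranger 6.1.2 on mm10, while the study's methods name another version and a 3′ kit where the labels name a 5′ kit. How strand and reads shared by close gene copies were counted is not given in the sources used here. Groups and replicate numbers were taken from the labels. The genes and lists were chosen with earlier results of these data known.

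Barcodes with at least 200 genes were gated by UMIs of marker genes, with at least 2000 UMIs for epithelial and 1000 for other cells, and gate thresholds were set after looking at marker counts only. Scrublet (scanpy 1.11.5) called 3 cells in all and was not relied on. A total of 851 barcodes that passed the gates of more than 1 lineage, or of more than 1 epithelial subtype, were left out of the classes reported. UMIs were summed per class and library, and classes with at least 10 cells in every library were tested with edgeR 4.0.16 (R 4.3.3; quasi-likelihood, robust, TMM, filterByExpr with a count minimum of 10 and a total of 15, Benjamini-Hochberg 0.05 over all genes tested). Differences between classes were tested as label by class interactions with the library as a block. Shares were compared by exact permutation tests (scipy 1.17.1). On simulated counts the fit recovered 193 of 198 changed genes in enterocyte-like sums of 12221 genes, with 4.93% false calls. It recovered 153 of 192 in gamma-delta T-like sums of 8499 genes (3.16%) and 92 of 183 in tuft-like sums of 6590 genes (6.12%). Each planted change was 1 on the log2 scale, up or down, larger than that of any member in enterocyte-like cells taken whole. Recovery at the smaller fold changes of the members there, or with most genes changed, was not tested. The named genes are the 8 members, the pathway lists, the receptors, Elavl1, and the 5 genes most like H2-T3 per label among genes with at least 10 CPM in a class. Alternatives were no TMM scaling, no filter, DESeq2 1.42.0, a replicate block, leaving out each library, thinned sums, a cell filter of 500 genes and 25% mitochondrial UMIs, a stricter gate, and leaving out the 8% of cells with the highest doublet score. Another UMI minimum, immune cells with at most 0.1% epithelial UMIs, and zones without Apoa4 (at least 0.3% and at most 0.1% of UMIs on the other 4 markers) were added after the data had been seen. Class I genes were not used in any gate. 1 further gene, fixed for the regulators but dropped from the 9 counted, is not reported here.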

Additional observations from a re-analysis of the deposited data

Results flagged for a closer look

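The label effect on H2-D1 differed between cell classes. It was 0.71 (log2) higher in enterocyte-like than in T-like cells, with libraries of both classes from the same animals. That test called 1 of 8 members and 17.5% of all genes. H2-D1 stood higher in 3 of 3 libraries labelled IE-HuR-/- than in any control library of the enterocyte-like class. In that class 60.7% of all genes were called, and the share of all genes without overlap was not computed.

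The label effect also differed between villus-tip and lower-villus enterocyte-like cells for 7 members, where 29.8% of all genes differed. The tip minus lower values were -0.31 for H2-K1, -0.30 for H2-D1, -0.40 for B2m, -0.89 for Tap1, -0.61 for Tap2, -0.32 for Tapbp and -0.62 for H2-T3 on the log2 scale. With zones drawn without Apoa4 the H2-T3 value kept its sign and its call, those of H2-K1, H2-D1 and Tap2 were not called, and those of B2m, Tap1 and Tapbp were called in the other direction.

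Barcodes that passed no gate, which entered no comparison, held 2 members above the control level in 3 of 3 libraries labelled IE-HuR-/-. H2-D1 had a mean of 601 ± 25.4 CPM against 501 ± 56.1 CPM in the control libraries, and Nlrc5 11.48 ± 1.19 against 5.08 ± 1.01 CPM (SD, n = 3, without TMM scaling). These barcodes are shallow and mixed, and no test was run on them. The values do not set the members apart from other genes, as the share of all genes that part the labels was not computed for these barcodes. H2-K1, B2m, Tapbp and H2-T3 lay lower in them in 3 of 3 libraries labelled IE-HuR-/-, with B2m at 1531 to 1912 CPM in the control libraries and 1267 to 1417 CPM in the others, and Tapbp at 267 to 376 and 210 to 234 CPM.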

How the results depend on the processing

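Over 81 results and 1098 alternative values, 956 were classed as unchanged. For fold changes this meant the same direction and side of the threshold, and for levels a move smaller than the spread. For shares of cells it meant only the same sign. Counts of members called were allowed to differ somewhat, so 5 in place of 7 in enterocyte-like cells was classed as unchanged. The cause of each change below was not tested. Enterocyte-like cells, log2 fold changes: B2m, not called, was at -0.0889 without TMM scaling, and was called at 0.12 with DESeq2, at 0.14 with the stricter gate and at 0.0971 with a replicate block. Tap2 was no longer called with DESeq2 (-0.13) or the stricter gate (-0.0885), nor was Tapbp (-0.0854 and -0.12). Without TMM scaling, signs turned at the villus tip for B2m (-0.16), Tap1 (-0.19, and -0.11 with the stricter gate) and Nlrc5 (-0.11), in lower-villus cells for H2-K1 (-0.0490) and H2-T3 (-0.0162), where 4 members were called, and in goblet-like cells for B2m (-0.14) and Tapbp (-0.0882). In zones without Apoa4, lower-villus values were -0.30 for H2-K1, -0.0591 for Tap2, -0.17 for Tapbp and -0.0777 for H2-T3, and tip minus lower values 0.0407 for H2-D1, 0.19 for B2m, 0.64 for Tap1, 0.14 for Tapbp and 0.69 for Nlrc5, with 4 members called. Goblet-like B2m was at -0.0214 without the highest doublet scores and Tapbp at -0.0427 with the stricter gate, which called 0 members and 5 of 2105 genes. Without the filter on low counts, 1 member was called in tuft-like and 1 in enteroendocrine-like cells. B2m in gamma-delta T-like cells with low epithelial RNA was at -0.0570. H2-D1 in CD8 alpha-beta T-like cells was at 0.0856 without TMM scaling, 0.11 without the filter and 0.0043 with DESeq2. In B-like cells 1 member was called without TMM scaling, 1 without the filter and 2 with DESeq2. Enterocyte-like minus T-like, H2-K1 was at 0.0561 with DESeq2, and 3 members were called without TMM scaling, with DESeq2 and without the highest doublet scores.

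Mean H2-T3 levels (CPM, control and IE-HuR-/- label) with the stricter gate were 142.9 and 85.2 at the tip, 105.6 and 125.1 below it and 56.1 and 70.4 in goblet-like cells. In zones without Apoa4 they were 76.4 and 49.5 at the tip and 198.4 and 169.9 below it. With the other UMI minimum the lower-villus level of the label IE-HuR-/- was 132.4, and T-like cells with low epithelial RNA had 6.51. The share of lower-villus cells with an H2-T3 UMI differed by -0.184 percentage points with the filter of 500 genes. Leaving out 1 library gave ranges of 0.0749 to 0.14 for B2m, -0.21 to -0.11 for Tap2 and -0.12 to -0.0726 for Tapbp in enterocyte-like cells. At the tip they were -0.0044 to 0.13 for Tap1 and -0.30 to 0.34 for Nlrc5. For H2-D1 they were -0.0714 to 0.15 in tuft-like, -0.0928 to 0.0488 in CD8 alpha-beta T-like and -0.0412 to 0.47 in myeloid-like cells, and for B2m in gamma-delta T-like cells -0.0015 to 0.0575. H2-K1, enterocyte-like minus T-like, had -0.0863 to 0.0578, and the lower-villus share -0.396 to 0.817 points. Counts of members called ran from 0 to 1 in progenitor-like and in gamma-delta T-like cells, 1 to 4 in B-like cells and 1 to 4 for enterocyte-like minus T-like.

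Same-numbered libraries showed no clear shared deviation (r from -0.194 to 0.140 over classes, -0.145 to -0.00581 in enterocyte-like cells), and the main fits used no pairing. In tuft-like cells r was above 0 throughout, at 0.0254 to 0.121. With 3 such pairs a class and no test, this cannot exclude a pairing or a shared batch. The replicate block changed no call beyond B2m above. In enterocyte-like cells DESeq2 called 6220 genes against 7448 with edgeR, in goblet-like cells 1420 against 2112. The stricter gate left under 10 cells in a library of the immune, tuft-like, enteroendocrine-like and progenitor-like classes, which were not run. Depth limits Nlrc5, with 5 to 7 UMIs in each control goblet-like sum, and every member in the classes of few cells. P-values measure the spread between 3 animals per label.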

Other observations

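The classes named here were too small to test, and their levels are given as values only (CPM without TMM scaling, SD over 3 libraries). Fibroblast-like cells, 56 in the control libraries and 15 in those labelled IE-HuR-/-, had H2-K1 at 1164 ± 357 and 4690 ± 963, H2-D1 at 601 ± 167 and 2013 ± 510, and B2m at 1020 ± 182 and 3618 ± 1148. Tapbp was at 568 ± 89.2 and 936 ± 201 in them, and H2-T3 had 6 UMIs under the first label and 0 under the second. The libraries of the second label held 3 to 7 such cells each.

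CD4 T-like cells, 28 and 158, had H2-K1 at 2186 ± 493 and 2262 ± 193 and H2-D1 at 1437 ± 221 and 1497 ± 67.0. Nlrc5 was found in them with 4 UMIs in the control libraries and 46 in the others, 24.9 ± 26.1 and 68.8 ± 13.5 CPM. Plasma-like cells numbered 2 and 18 and are not described.

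Among barcodes of no class, H2-T3 lay between 70.7 and 84.0 CPM in the control libraries and between 45.1 and 48.8 CPM in those labelled IE-HuR-/-, and H2-K1 between 2439 and 3229 and between 1660 and 1904 CPM. In these the libraries of the labels did not overlap for either gene, and the share of all genes without overlap was not computed.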
